A study of Mus musculus with 12 samples.

Results

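Dense clusters of distal peaks are stretches of DNA in which open sites away from gene ends lie close together. They were found on mm10 by taking every autosomal peak whose midpoint lay more than 1 kb from both ends of all protein-coding RefSeq genes, and by joining neighbours whose midpoints were at most 12.5 kb apart. Chains of 10 or more peaks were kept. This gave 654 clusters from 20388 chains of any size, and they held 9208 peaks, which is 13.4% of the 68689 peaks measured and 17.9% of the 51478 distal autosomal peaks. The rule uses the positions of peaks and genes and no counts. A cluster is called here by the protein-coding gene nearest to most of its peaks, with a number where a gene has several, and the name does not say which gene a peak acts on.

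Open chromatin was profiled by Omni-ATAC-seq, an assay in which the Tn5 transposase cuts accessible DNA and tags it for sequencing, in germinal center B cells from the spleen of C57BL/6 mice of 8 to 10 weeks. The 4 groups of 3 libraries were HOMO CB and HOMO CC (Pbrm1-/-), and WT CB and WT CC (Pbrm1+/+). The letters CB and CC are not spelled out in the labels, and the count columns carry the name Pbrm1AID, whose meaning the labels do not give, so the design of the allele is unknown here. Accessibility does not measure the Pbrm1 product, and the genotypes are those of the labels. Whether each library is 1 mouse is not stated either, and the p-values therefore measure the spread between libraries, which may be technical. Library totals over the peaks ran from 6431354 to 45590454 counts. The replicates of a group differed by more than counting error (chi-square per degree of freedom 2.28 to 8.57). The gene ends of all 9 B cell and germinal center markers carried a peak, at 23.1 to 50.9 CPM. CPM values are peak counts scaled to the size of each library. Peaks also stood at 4 of 8 T cell, 2 of 7 myeloid, 1 of 4 natural killer and 2 of 4 erythroid markers. These reached at most 21.4 CPM, at Cd3d, close to the lowest B cell value of 23.1 CPM, at Bcl6. Cd247 (19.3 CPM), Cebpa (12.7 CPM) and Klf1 (8.92 CPM) also had a peak. Cd3e, Cd8a, Lyz2 and Itgam had none.

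Closely spaced distal open sites are a known feature of loci that define a cell type, where many enhancers serve 1 gene and are often bound together by lineage factors and coactivators. In germinal center B cells such domains are known at genes of B cell identity, for example Bcl6. Pbrm1 encodes BAF180, a subunit of the PBAF form of the SWI/SNF remodelers, which move and evict nucleosomes with energy from ATP and which act at both promoters and enhancers.

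The clusters are not free of transcription starts. A total of 265 members in 205 clusters held a RefSeq start that lay inside a gene or belonged to a noncoding RNA, and some are shown here for the sequence next to an open site inside a cluster. The 7 sequences below are the 250 bases just before such a start, read 5′ to 3′ on the strand of the transcript, from RefSeq on GRCm38.p6. They are in lower case with each CG dinucleotide in capitals. The starts of the first 4 lie in members called lower in HOMO CB, and those of the last 3 in members that passed no test between genotypes. The start lies in the peak, but the bases before it need not: all 250 bases lie in the peak for both Abr windows and the Rbpj window, 185 for Csk, 57 for St8sia6, and 57 and 51 for the Ikzf1 windows in the order shown.
Abr cluster 2, chr11:76571385-76571634, minus strand: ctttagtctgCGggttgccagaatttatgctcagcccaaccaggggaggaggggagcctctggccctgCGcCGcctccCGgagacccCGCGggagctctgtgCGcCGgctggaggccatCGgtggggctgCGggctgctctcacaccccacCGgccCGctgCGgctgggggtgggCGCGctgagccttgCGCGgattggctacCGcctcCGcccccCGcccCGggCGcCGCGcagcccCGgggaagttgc
Abr cluster 1, chr11:76494496-76494745, minus strand: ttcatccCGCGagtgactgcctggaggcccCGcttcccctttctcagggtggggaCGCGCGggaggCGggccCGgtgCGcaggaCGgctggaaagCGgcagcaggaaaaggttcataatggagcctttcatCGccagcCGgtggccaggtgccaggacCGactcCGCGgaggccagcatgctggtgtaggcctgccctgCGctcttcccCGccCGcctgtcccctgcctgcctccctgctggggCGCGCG
Rbpj, chr5:53590236-53590485, plus strand: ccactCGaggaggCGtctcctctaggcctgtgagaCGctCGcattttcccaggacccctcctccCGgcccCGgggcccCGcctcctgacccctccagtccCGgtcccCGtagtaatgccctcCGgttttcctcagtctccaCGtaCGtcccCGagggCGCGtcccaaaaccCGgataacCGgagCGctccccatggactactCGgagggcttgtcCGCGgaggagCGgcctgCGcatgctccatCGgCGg
St8sia6, chr2:13793521-13793770, minus strand: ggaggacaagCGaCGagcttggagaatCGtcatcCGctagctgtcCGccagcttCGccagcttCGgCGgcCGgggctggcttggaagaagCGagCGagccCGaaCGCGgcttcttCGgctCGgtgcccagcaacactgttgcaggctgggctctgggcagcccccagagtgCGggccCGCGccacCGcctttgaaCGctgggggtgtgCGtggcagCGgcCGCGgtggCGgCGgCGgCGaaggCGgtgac
Csk, chr9:57645654-57645903, minus strand: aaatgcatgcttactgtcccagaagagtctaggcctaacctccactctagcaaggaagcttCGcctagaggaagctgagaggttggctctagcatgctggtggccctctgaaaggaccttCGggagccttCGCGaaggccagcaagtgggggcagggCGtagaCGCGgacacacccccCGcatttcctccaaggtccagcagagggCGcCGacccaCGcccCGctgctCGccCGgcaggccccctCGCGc
Ikzf1, chr11:11685675-11685924, plus strand: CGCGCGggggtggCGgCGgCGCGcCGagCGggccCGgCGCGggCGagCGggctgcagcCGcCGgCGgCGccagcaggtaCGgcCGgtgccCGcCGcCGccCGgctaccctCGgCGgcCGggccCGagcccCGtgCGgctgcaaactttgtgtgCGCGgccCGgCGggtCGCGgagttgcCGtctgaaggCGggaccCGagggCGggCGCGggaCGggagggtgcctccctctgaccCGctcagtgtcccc
Ikzf1, chr11:11689927-11690176, plus strand: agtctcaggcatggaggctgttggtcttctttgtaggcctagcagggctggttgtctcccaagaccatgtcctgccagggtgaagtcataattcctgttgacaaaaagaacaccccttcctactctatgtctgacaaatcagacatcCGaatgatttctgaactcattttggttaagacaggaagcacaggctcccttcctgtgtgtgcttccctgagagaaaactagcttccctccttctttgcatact

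The windows before starts in members called lower were rich in CG. The 4 shown held 25, 22, 25 and 30 CG dinucleotides, the Csk window held 16, and the windows in the Ikzf1 cluster held 44 and 1, so a high CG count was also present where no change was called. Over all 13 windows before a start in a member called lower in HOMO, the median was 21 CG at 65.2% G and C. A peak can hold several overlapping windows, as the Rbpj peak did, so the windows are not separate peaks. Start type was not separated from the call: of members called lower in CB, 9 held a protein-coding start and 1 a noncoding start only. The 296 windows before starts in members as a whole had a median of 8 CG at 56% G and C, and all 32817 start windows of the RefSeq table a median of 6 CG at 52.4%. Motifs were counted as exact letters on both strands. The ETS word CCGGAAG stood in 6.08% of the member windows and 6.9% of all windows. The AP-1 word TGANTCA stood in 7.77% and 6.75%, the octamer ATGCAAAT in 2.03% and 1.6%, and the GC box GGGCGG in 39.9% and 32.7%. These shares describe letters in the windows only.

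The typical cluster was 12 peaks over 47.0 kb, with neighbouring peaks 2726 bp apart at the median. Spans ran from 11.5 to 154 kb and added up to 33.2 Mb, and 66 clusters held 20 peaks or more. The largest was at Cxxc5, a zinc finger gene, with 41 peaks, followed by Ikzf1 with 39, Tomm20 with 37, Bach2 with 36, Klf14 with 34 and Tbc1d16 with 33. Of the members, 63.1% lay inside a protein-coding gene, close to the 59.8% of the other distal autosomal peaks. In 233 clusters every peak was inside a gene, and in 88 none was. The number of clusters per chromosome ran from 17 on chromosome 18 to 59 on chromosome 11. In all, 604 of 20665 autosomal protein-coding genes (2.92%) gave their name to a cluster, and 45 gave it to several, with at most 5, at Foxp1, a forkhead transcription factor of B cells.

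Member peaks were more open than other distal peaks. All peaks had the same length (501 bp), so levels can be set side by side. The median member had 12.1 CPM over the 12 libraries, against 5.12 CPM for the other distal autosomal peaks, 2.96 CPM for isolated distal peaks and 22.02 CPM for peaks at gene ends. Within clusters, the peaks at the edges were lower (median 8.37 CPM) than those inside (12.7 CPM). Summed over its peaks, a cluster had between 45.4 and 1104 CPM, with a median of 198. The strongest peak gave 20.1% of a cluster's sum at the median and 6.14% to 53.7% over all clusters, so the signal of most clusters was spread over several sites. The highest sums were 1104 CPM at Cxxc5, 963 at Tomm20, 951 at Hvcn1, which encodes a proton channel of B cells, 818 at Dtx1, 746 at Tbc1d16 and 720 at Ptma.

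The share of reads in the clusters had a higher mean in HOMO than in WT libraries, a difference that did not pass its test. In CB, the share of all counts that fell in cluster peaks was 15%, 15.8% and 16.1% in HOMO, against 15.05%, 14.9% and 14.6% in WT. In CC it was 14.6%, 15.6% and 15.9% in HOMO, against 14.5%, 14.4% and 14.7% in WT. The means differed by 0.779 percentage points in CB and by 0.867 in CC, but an exact two-sided permutation test over the libraries gave p = 0.2 in both, where 0.1 is the smallest value that 3 against 3 allows. The lowest HOMO share in each population was that of HOMO library 1, which was also the shallowest HOMO library, and the part of depth in this was not tested.

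**Figure D1:**
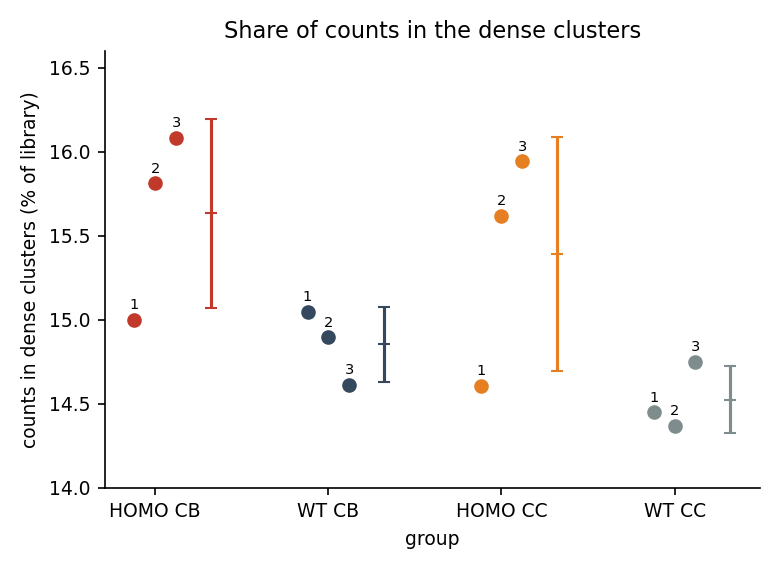
Share of each library's counts (percent, axis from 14) that fell in the 9208 cluster peaks, by group, with the library number above each point and the mean and SD beside them (n = 3). HOMO libraries 2 and 3 stand above every WT library in both populations, at 15.6% to 16.1%, while HOMO library 1 lies at 15% in CB and 14.6% in CC.

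Each cluster was then tested as 1 unit, its counts summed, beside every other chain and single peak of the table (37599 units), with edgeR's quasi-likelihood test and Benjamini-Hochberg adjustment at 0.05. In CB, 44 clusters were higher and 4 lower in HOMO than in WT. That is 7.34% of the clusters, near the background of 6.87% of all units called. The balance of directions differed from the background, in which 1.77% were higher and 5.1% lower. Units at gene ends or on the X chromosome made up 1388 of the 1918 lower units in CB, and 1060 of 1385 in CC. In CC, 40 clusters were higher and 0 lower, 6.12% against a background of 4.74% (1.06% higher and 3.68% lower). For the lower direction in CC, 7 clusters had an unadjusted p under 0.05 and DESeq2 called 1. The balance toward higher calls was not particular to the clusters. Chains of exactly 9 peaks, just outside the rule, gave 13 higher and 1 lower in CB, and 12 and 1 in CC. Chains of 6 to 9 peaks gave 53 higher and 35 lower in CB, and 45 and 12 in CC. Chains of 2 to 5 peaks lacked this balance, with 274 higher and 285 lower in CB, and 151 and 169 in CC. In bulk cells, fewer cells of a type and less open chromatin per cell cannot be told apart.

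Most clusters shifted by a small amount. The median log2 fold change of HOMO over WT was 0.10 in CB and 0.12 in CC over the clusters, beside 0.03 and 0.02 over all units, and was positive in 522 clusters (79.8%) in CB and 568 (86.9%) in CC. With intensity-dependent loess offsets fitted to the summed units, these medians turned to -0.01 in CB and -0.02 in CC, and the calls to 9 higher and 22 lower in CB and 3 higher and 10 lower in CC. With loess offsets estimated on single peaks, an alternative chosen after the data were seen, the calls were 75 higher and 8 lower in CB and 64 higher and 0 lower in CC. The cluster medians stayed positive with the single-peak offsets (0.08 in CB and 0.09 in CC) and with DESeq2 size factors (0.09 and 0.12). Among these scalings, the direction of the general shift turned only with loess offsets on the summed units. The fold changes ran from -0.44 to 0.46 in CB and from -0.30 to 0.42 in CC, with a median standard error of 0.08. All 3 HOMO libraries lay above all 3 WT libraries at 185 clusters in CB and below them at 21, against 12.4% and 14% of all units. In CC the counts were 189 and 11, against 10.6% and 12.7%.

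The number of calls also depended on single libraries. In CB, the 48 calls became 0 without HOMO CB library 2, 10 without HOMO CB library 3, 12 without WT CB library 1, 20 without WT CB library 3, 28 and 29 without WT CC libraries 1 and 2, and 84 without HOMO CC library 1. In CC, the 40 calls became 0 without HOMO CC library 2, 3 without HOMO CC library 3, 2 without WT CC library 1, 12 without WT CC library 2, 12 without WT CC library 3, 20 and 25 without HOMO CB libraries 2 and 3, 71 without WT CB library 3 and 149 without HOMO CC library 1. The median fold change of the clusters stayed positive in all 12 of these fits, at 0.07 to 0.14 in CB and 0.07 to 0.19 in CC.

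**Figure D2:**
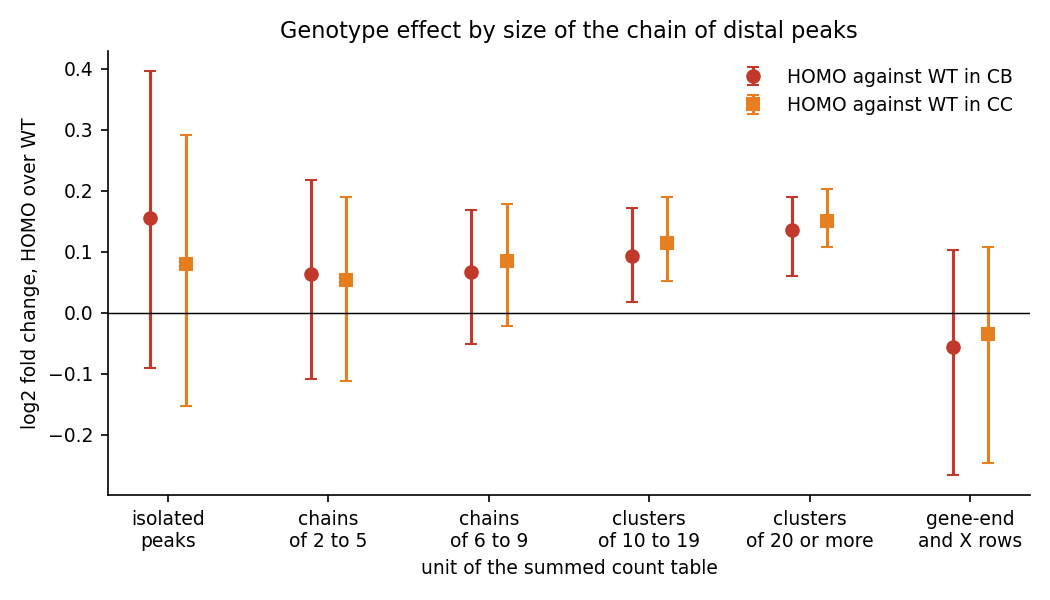
Log2 fold change of HOMO over WT for summed chains by number of peaks, in CB (circles) and CC (squares); points are medians over the units of a class and bars run from the first to the last quartile. Clusters of 20 or more peaks lie at 0.14 and 0.15, clusters of 10 to 19 at 0.09 and 0.11, chains of 6 to 9 at 0.07 and 0.08, isolated peaks at 0.15 and 0.08, and gene-end and X units at -0.06 and -0.03; with loess offsets on the summed units the medians over the 654 clusters turned to -0.01 and -0.02.

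The median fold change was larger for longer chains, at 0.06 in CB and 0.05 in CC for chains of 2 to 5 peaks and 0.14 and 0.15 for clusters of 20 or more, but isolated peaks in CB stood at 0.15. The limit of 10 peaks was not a boundary in the data, since the 135 chains of exactly 10 peaks had a median of 0.07 in CB and 0.09 in CC, and the 158 chains of exactly 9, just outside the rule, had 0.09 and 0.11. Within a cluster the members moved together in part. The cluster accounted for 17.3% of the variance of member fold changes in CB and 14.1% in CC (intraclass correlation), and for 24.9% and 22.2% among chains of 6 to 9. Of the 48 clusters called in CB, 25 held no single called peak, and of the 40 called in CC, 14 held none. In clusters called higher, the median share of members with a positive fold change was 91.3% in CB and 91.7% in CC, and none of these clusters held a member called lower. The call was made on the sum of the same counts, so these shares follow in part from it. Over all 9208 members, 61.0% were positive in CB and 68.1% in CC.

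The cluster with the smallest p in CB lay over the constant end of the immunoglobulin kappa light chain locus. It spans chr6:70709226-70769148 with 17 peaks and is named for Rpia, a sugar phosphate isomerase, because immunoglobulin segments are not protein-coding entries of the gene table. The J segments Igkj1 to Igkj5 and the constant gene Igkc (chr6:70726435-70726754) lie inside it, and no other cluster overlapped an immunoglobulin segment. The mouse kappa locus is known to carry strong enhancers in the J to C intron and downstream of Igkc. The summed signal was 413, 428 and 382 CPM in HOMO CB, against 303, 336 and 276 CPM in WT CB. In CC it was 287, 337 and 316 CPM in HOMO, against 252, 247 and 246 CPM in WT. The HOMO libraries lay above the WT libraries in both populations without overlap, with a log2 fold change in CB of 0.42 ± 0.08 (SE, n = 3 each, edgeR adjusted p = 0.0067). The fold change in CC was 0.34, at an adjusted p of 0.0234.

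All 17 peaks of the kappa cluster had a positive fold change in both populations, and 3 passed the test on their own in each. The strongest peaks lay 9.23 and 17.6 kb downstream of the first base of Igkc, at 52.0 and 48.7 CPM over all libraries. The clearest change was at the peak between them, 14.3 kb downstream, with 45.8, 37.8 and 34.2 CPM in HOMO CB against 21.5, 24.5 and 24.5 CPM in WT CB (log2 fold change 0.73, edgeR adjusted p = 0.00336). Its CC values were 21.7, 23.2 and 21.9 CPM in HOMO against 13.1, 16.3 and 16.3 CPM in WT (0.54, adjusted p = 0.0271). The peak over Igkc itself had 17.0, 17.3 and 13.8 CPM in HOMO CB against 9.56, 12.1 and 9.22 CPM in WT CB (0.65, adjusted p = 0.0221). The groups did not overlap at either peak. The cluster's call in CB was lost without HOMO CB library 2 (edgeR adjusted p = 0.0541). In CC it was lost without HOMO CC library 2 (0.178), HOMO CC library 3 (0.0754), WT CC library 1 (0.0738), WT CC library 2 (0.0702) or WT CC library 3 (0.0564), and with loess offsets on the summed units (0.171). The CB call of the Igkc peak was lost without HOMO CB library 2 (0.150), as it was without WT CB library 1 (0.105) or WT CB library 3 (0.0793). In CC the call at 14.3 kb was lost without HOMO CC library 2 (0.174), HOMO CC library 3 (0.0896), WT CC library 1 (0.128) or WT CC library 2 (0.0599).

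**Figure D3:**
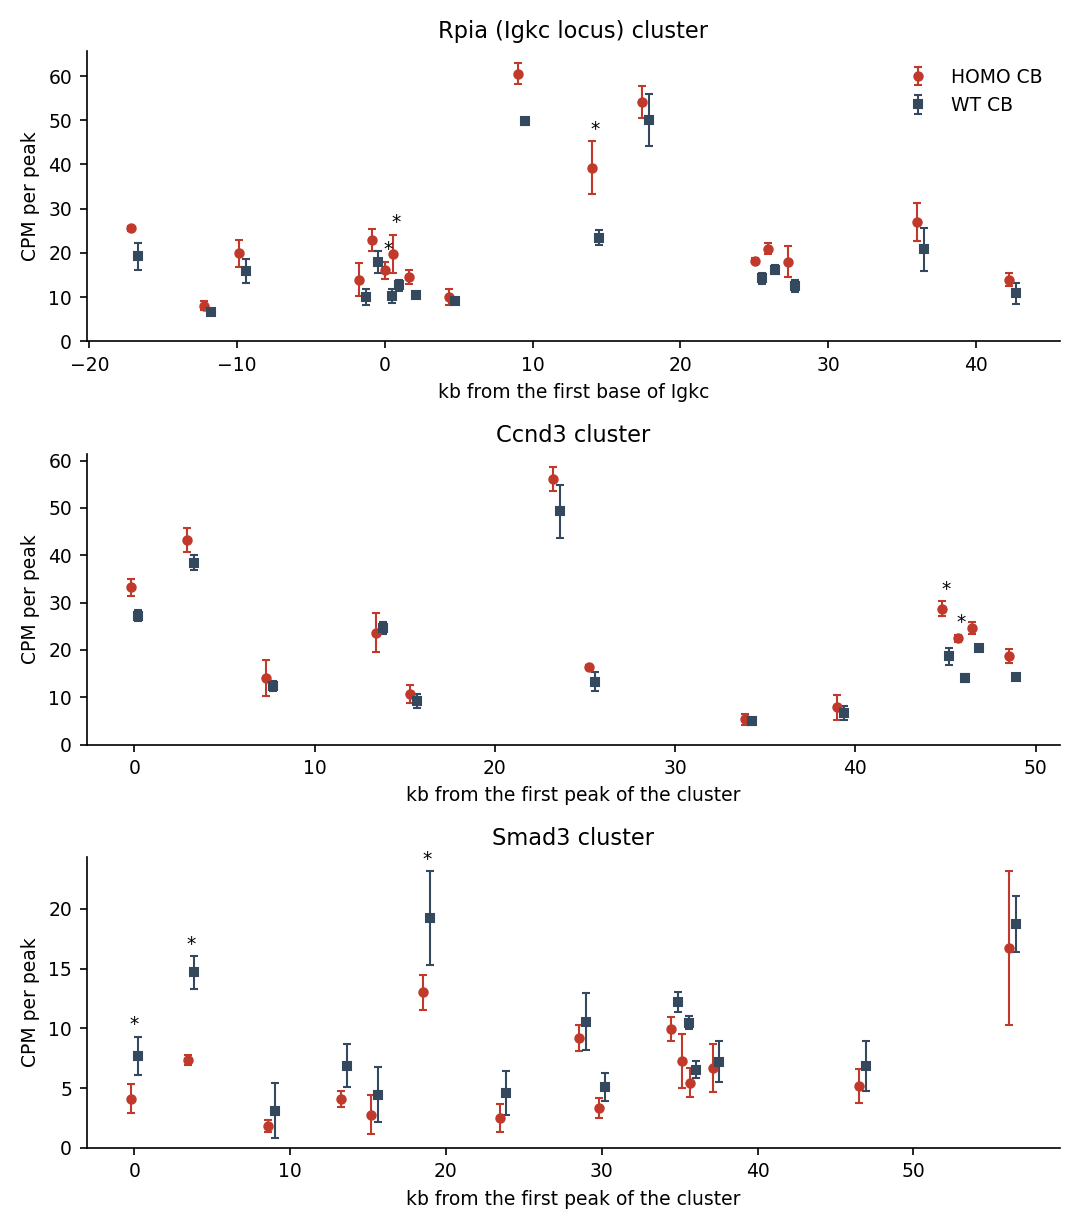
Mean CPM of each 501 bp peak with its SD (n = 3) along 3 clusters in HOMO CB (circles) and WT CB (squares, shifted slightly sideways), against distance in kb; asterisks mark peaks called between genotypes in CB. In the cluster over Igkc all 17 HOMO means lie above the WT means, at Ccnd3 12 of 13 do, and at Smad3 none of 15 do.

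The clusters at Bcl6 and Ccnd3 were called higher in both populations. The cluster upstream of Bcl6, the repressor that germinal center B cells require, spans chr16:24151042-24217275 with 24 peaks, of which 11 are nearest to the neighbour gene Lpp. It had 572, 619 and 558 CPM in HOMO CB against 470, 506 and 384 CPM in WT CB, and 521, 559 and 535 CPM in HOMO CC against 404, 443 and 361 CPM in WT CC. The groups did not overlap, and the log2 fold changes were 0.36 ± 0.09 for CB (edgeR adjusted p = 0.0258) and 0.42 ± 0.09 for CC (adjusted p = 0.0167). The cluster inside Ccnd3, the gene of cyclin D3 that drives division in the dark zone, had 304, 304 and 318 CPM in HOMO CB against 254, 256 and 237 CPM in WT CB (0.31, adjusted p = 0.0109). In CC it had 278, 267 and 289 CPM in HOMO against 233, 227 and 224 CPM in WT (0.29, adjusted p = 0.0211). In both clusters every HOMO library lay above every WT library in both populations.

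These calls stood close to the threshold. Neither cluster passed in either population with loess offsets on the summed units (edgeR adjusted p of 0.188 and 0.188 at Bcl6, and 0.0721 and 0.228 at Ccnd3, for CB and CC), though their fold changes kept their sign. In CB, leaving out HOMO CB library 2 ended the calls at Bcl6 (0.137) and Ccnd3 (0.0518), and HOMO CB library 3 did so too (0.058 and 0.0588). WT CB libraries 1 and 3 ended that at Bcl6 (0.0696 and 0.0836). In CC, HOMO CC libraries 2 and 3 ended both (0.116 and 0.0553 at Bcl6, 0.0859 and 0.0927 at Ccnd3). WT CC library 1 ended Bcl6 (0.0625) and Ccnd3 (0.0621), WT CC library 2 Ccnd3 (0.0638), and WT CC library 3 Bcl6 (0.0602) and Ccnd3 (0.0586).

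The clusters at Bach2, Ikzf1 and Id3 were called higher in CB but fell short of the threshold in CC. The Irf4 cluster (-0.06 in CB and 0.07 in CC) and the first Irf8 cluster (0.23 and 0.27) were not called in either population. The Bach2 cluster (36 peaks), at the gene of a repressor that holds back plasma cell differentiation, had 752, 835 and 732 CPM in HOMO CB against 624, 675 and 568 CPM in WT CB (0.31, edgeR adjusted p = 0.020; CC 0.26, adjusted p = 0.0534). The Ikzf1 cluster (39 peaks), at the gene of the zinc finger factor Ikaros, had 524, 579 and 574 CPM in HOMO CB against 493, 461 and 446 CPM in WT CB (0.26, adjusted p = 0.0412; CC 0.26, adjusted p = 0.0531). The cluster at Id3, an inhibitor of E proteins, had 765, 817 and 861 CPM in HOMO CB against 710, 682 and 681 CPM in WT CB (0.24, adjusted p = 0.048; CC 0.20, adjusted p = 0.109). In all 3 the groups did not overlap in either population. Of the 39 Ikzf1 peaks, 36 had a positive fold change in CB, and none passed on its own. These CB calls were lost with loess offsets on the summed units (adjusted p = 0.2, 0.161 and 0.316). They were also lost without HOMO CB library 2 (0.129 at Bach2, 0.163 at Ikzf1, 0.142 at Id3), WT CB library 1 (0.0722, 0.0673 and 0.0963) or WT CB library 3 (0.0654, 0.0972 and 0.0889). At Ikzf1 and Id3 they were lost without HOMO CB library 3 (0.132 and 0.181), WT CB library 2 (0.103 and 0.12), WT CC library 1 (0.0602 and 0.0701) or WT CC library 2 (0.0532 and 0.0625), and at Id3 without HOMO CC library 2 (0.0571).

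The second Cxcr4 cluster and the Jak1 cluster were called higher in both populations. Cxcr4, the chemokine receptor of dark zone positioning, has a pair of clusters. The second had 227, 254 and 248 CPM in HOMO CB against 189, 194 and 194 CPM in WT CB (0.34, edgeR adjusted p = 0.0191), and 186, 225 and 222 CPM in HOMO CC against 160, 176 and 183 CPM in WT CC (0.29, adjusted p = 0.0492). The first had 364, 400 and 372 CPM in HOMO CB against 308, 313 and 302 CPM in WT CB (0.30, adjusted p = 0.0284), and in CC its groups overlapped (0.18, adjusted p = 0.195). The cluster inside Jak1, a kinase of cytokine receptors, had 153, 147 and 135 CPM in HOMO CB against 118, 111 and 96.7 CPM in WT CB (0.41, adjusted p = 0.0083). In CC it had 127, 134 and 125 CPM in HOMO against 97.7, 107 and 95.5 CPM in WT (0.36, adjusted p = 0.0205). At Jak1 and at the second Cxcr4 cluster no HOMO library was as low as a WT library.

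In CC the smallest p was at S1pr3, a receptor for sphingosine-1-phosphate, whose cluster had 226, 239 and 253 CPM in HOMO CC against 185, 186 and 185 CPM in WT CC (0.37, edgeR adjusted p = 0.00993). It also passed in CB, at 202, 225 and 224 CPM in HOMO against 175, 181 and 184 CPM in WT (0.27, adjusted p = 0.028). The cluster at Csk, whose product inhibits Src family kinases, had 330, 364 and 348 CPM in HOMO CC against 272, 286 and 265 CPM in WT CC (0.34, adjusted p = 0.0123). In CB it had 372, 375 and 374 CPM in HOMO against 323, 333 and 297 CPM in WT (0.24, adjusted p = 0.048). The cluster near Bhlhe40, a helix-loop-helix repressor, had 192, 221 and 211 CPM in HOMO CC against 163, 167 and 158 CPM in WT CC (0.36, adjusted p = 0.0126). The cluster inside Ciita, the master activator of MHC class II genes, had 326, 368 and 353 CPM in HOMO CC against 288, 303 and 280 CPM in WT CC (0.27, adjusted p = 0.0479; CB 0.22, adjusted p = 0.08). At these 4 genes the HOMO libraries lay above the WT libraries without overlap.

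Other clusters named by their p were Pdia4, an endoplasmic reticulum disulfide isomerase (0.36 in CB, adjusted p = 0.00706; 0.30 in CC, adjusted p = 0.0214), the second Akap13 cluster (0.36, adjusted p = 0.00769; 0.27, adjusted p = 0.0375) and Pxdc1 (0.46, adjusted p = 0.00955; 0.33 in CC, adjusted p = 0.0584), all by edgeR. For CC they were Commd10 (0.41, adjusted p = 0.0134), the second Fchsd2 cluster (0.36, adjusted p = 0.0151) and the second Ralgps2 cluster (0.37, adjusted p = 0.0159), each of which also passed in CB at 0.30 to 0.33. At Pdia4 the sum was 153, 152 and 139 CPM in HOMO CB against 117, 119 and 111 CPM in WT CB, and 153, 142 and 147 CPM in HOMO CC against 119, 122 and 118 CPM in WT CC. No HOMO library of Pdia4 was as low as any WT library.

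In total 26 clusters were called higher in HOMO in both populations, at log2 fold changes of 0.24 to 0.42 in CB and 0.25 to 0.42 in CC. Besides those above they include Rhoh and Rasgrp3, which act in antigen receptor signalling, Fcrl1, an Fc receptor-like protein of B cells, Gimap6, Dgkd, Med13, Zcchc7 and Sgms1. None was lower in both, and no cluster was higher in 1 population and lower in the other. The contrasts of CB and CC use separate libraries, but libraries of equal number deviated together within a genotype, so the populations are not independent.

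None of the named genotype calls on clusters passed in all 12 fits that left out 1 library. Without HOMO CB library 2, edgeR adjusted p values in CB were 0.0564 at Pdia4, 0.0675 at Akap13, 0.0583 at Jak1, 0.0697 at Pxdc1, 0.145 and 0.104 at the first and second Cxcr4 cluster, and no other single library ended the calls at Pdia4, Akap13, Jak1 and Pxdc1. HOMO CB library 3 and WT CB library 1 also decided both Cxcr4 clusters in CB (0.0761 and 0.0761, and 0.0878 and 0.075), and WT CB libraries 2 and 3 the first (0.0585 and 0.0553). Without HOMO CC library 2, adjusted p values in CC were 0.0671 at S1pr3, 0.102 at Csk, 0.111 at Bhlhe40, 0.126 at Commd10, 0.114 at Fchsd2, 0.117 at Ralgps2, 0.264 at Ciita and 0.269 at the second Cxcr4 cluster. Without WT CC library 1 they were 0.0548 at Csk, 0.0524 at Bhlhe40, 0.0609 at Commd10, 0.0852 at Fchsd2, 0.0706 at Ralgps2, 0.148 at Ciita and 0.207 at the second Cxcr4 cluster. Without HOMO CC library 3 they were 0.0537 at Bhlhe40, 0.0511 at Fchsd2, 0.0691 at Ralgps2, 0.132 at Ciita and 0.173 at Cxcr4. WT CC library 2 decided Ralgps2 (0.0518), Ciita (0.0756) and Cxcr4 (0.0935), and WT CC library 3 Ciita (0.12) and Cxcr4 (0.051). Ciita and Cxcr4 in CC were further lost without HOMO CB library 2 (0.0712 and 0.0675), HOMO CB library 3 (0.0614 and 0.0628), WT CB library 1 (0.0603 and 0.0595) or WT CB library 2 (0.0568 and 0.0646). With loess offsets on the summed units, adjusted p was 0.116 at Csk, 0.053 at Bhlhe40, 0.0597 at Fchsd2, 0.384 at Ciita and 0.162 at the second Cxcr4 cluster in CC, and 0.0537 at the first in CB.

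The calls of these clusters in their second population were lost with the same libraries. For CC, edgeR adjusted p without HOMO CC library 2 was 0.0978 at Pdia4, 0.152 at Jak1 and 0.208 at Akap13, and without HOMO CC library 3 it was 0.0791, 0.0619 and 0.142. Without WT CC library 1 it was 0.0798, 0.0833 and 0.110, and without WT CC library 3 it was 0.0557, 0.0638 and 0.0974. WT CC library 2 ended the calls at Pdia4 (0.0539) and Akap13 (0.0741), and HOMO CB library 2 that at Akap13 (0.0516). For CB, adjusted p without HOMO CB library 2 was 0.132 at S1pr3, 0.153 at Csk, 0.187 at Bhlhe40, 0.160 at Commd10, 0.159 at Fchsd2 and 0.156 at Ralgps2. Without HOMO CB library 3 it was 0.111, 0.124, 0.0926, 0.0616, 0.0590 and 0.0964, and without WT CB library 1 it was 0.102, 0.110, 0.0697, 0.0742, 0.0934 and 0.0829. WT CB library 2 ended S1pr3 (0.0647), Csk (0.0594), Bhlhe40 (0.0928), Fchsd2 (0.0530) and Ralgps2 (0.0530), and WT CB library 3 ended Csk (0.136), Bhlhe40 (0.0850), Commd10 (0.0772) and Ralgps2 (0.0708). Csk was further lost without HOMO CB library 1 (0.0696) or HOMO CC library 2 (0.0586), and Csk and Bhlhe40 without WT CC library 1 (0.0693 and 0.0564) or WT CC library 2 (0.0607 and 0.0507). With loess offsets on the summed units, Pdia4 (0.182), Jak1 (0.127) and Akap13 (0.214) fell short in CC, and S1pr3 (0.0825), Csk (0.311), Bhlhe40 (0.127), Commd10 (0.0707) and Fchsd2 (0.0753) in CB.

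**Figure D4:**
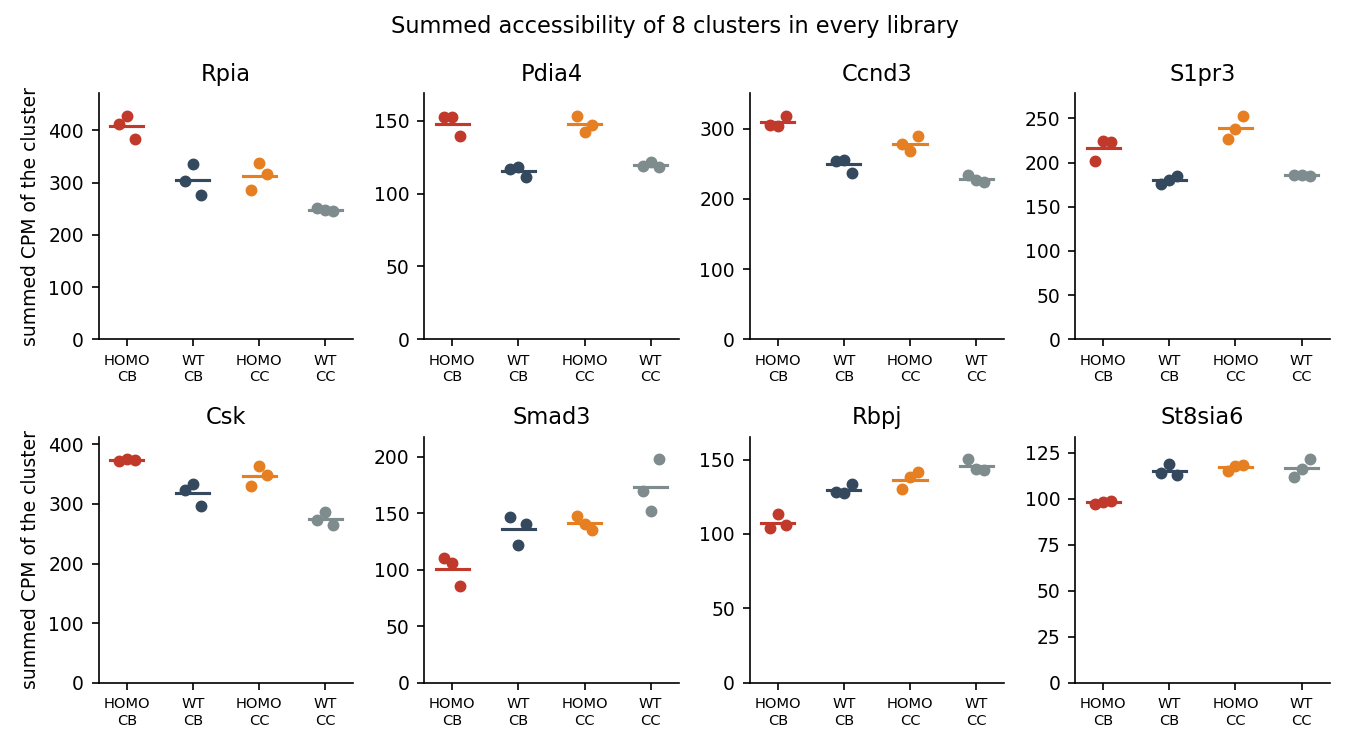
Summed CPM of 8 clusters in every library (points) with the group mean (line), for HOMO CB, WT CB, HOMO CC and WT CC, on axes that start at 0. Rpia, Pdia4, Ccnd3, S1pr3 and Csk have every HOMO library above every WT library of its population, Smad3 and Rbpj every HOMO library below, and St8sia6 has every HOMO library below in CB, where HOMO has 97.0, 98.5 and 98.6 CPM and WT 114, 119 and 113 CPM.

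Only 4 clusters were called lower in HOMO, all in CB. The Smad3 cluster, at chr9:63702588-63759426 within the gene of a transducer of TGF-beta signals, had 110, 106 and 85.9 CPM in HOMO CB against 146, 122 and 140 CPM in WT CB (-0.44 ± 0.10, edgeR adjusted p = 0.0172). In CC it had 148, 141 and 135 CPM in HOMO against 170, 152 and 198 CPM in WT (-0.30, adjusted p = 0.104). None of its 15 peaks had a positive fold change in CB, and the HOMO libraries lay below the WT libraries in both populations. The Rbpj cluster, within the gene of the DNA-binding partner of Notch, had 104, 113 and 106 CPM in HOMO CB against 129, 127 and 133 CPM in WT CB (-0.27, adjusted p = 0.0275; CC -0.09, adjusted p = 0.505). The St8sia6 cluster, at a sialyltransferase gene, had a log2 fold change in CB of -0.23 (adjusted p = 0.0467), against 0.01 for CC (adjusted p = 0.969). Rpgrip1, on chromosome 14 with Pbrm1 itself, stood at -0.32 for CB (adjusted p = 0.0496) and at -0.08 for CC (adjusted p = 0.7). The clusters of smallest p on the lower side in CC did not pass, with -0.26 at Osbpl8 (adjusted p = 0.0669) and -0.26 at Gfi1 (adjusted p = 0.116) beside Smad3. The HOMO libraries lay below the WT libraries at both.

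The lower calls in CB also rested on single libraries. Without HOMO CB library 3, edgeR adjusted p was 0.102 at Smad3, 0.107 at Rbpj, 0.122 at St8sia6 and 0.182 at Rpgrip1. Without HOMO CB library 2 it was 0.0654, 0.0697, 0.142 and 0.0548, and without WT CB library 1 it was 0.0899, 0.0823, 0.116 and 0.154. Leaving out HOMO CB library 1 ended Rbpj (0.0602), St8sia6 (0.0783) and Rpgrip1 (0.113), WT CB library 2 St8sia6 (0.119) and Rpgrip1 (0.121), and WT CB library 3 Rbpj (0.0604) and St8sia6 (0.0574). HOMO CC library 2 (0.0536 and 0.0549), WT CC library 1 (0.0622 and 0.0658) and WT CC library 2 (0.0657 and 0.0648) also ended the calls at St8sia6 and Rpgrip1.

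Peak by peak, the share of cluster members called was below the background. In CB, 89 members were higher and 107 lower in HOMO, which is 2.13% of members against 4.63% of all peaks (0.779% higher and 3.85% lower). In CC, 97 were higher and 38 lower, 1.47% against 2.75% (0.578% and 2.17%). The share of calls that were lower was 54.6% in CB and 28.1% in CC among members, 72.4% and 67.5% among the other distal autosomal peaks, 97.3% and 96.6% at gene ends, and 83.2% and 79.0% over all peaks. The medians over members were 0.06 in CB and 0.10 in CC, beside 0.01 and 0.02 over all peaks. The larger side in CB was not stable. With loess offsets on the peak table the CB members called were 157 higher and 93 lower, and in CC 88 and 37. The larger side in CB also changed with DESeq2 (189 higher and 138 lower), with its size factors (107 and 98) and with a replicate block (555 and 333). It changed without HOMO CC library 1 (149 and 134) but not, for example, without WT CC library 1 (65 and 88). At a log2 CPM of 3 to 4, members called lower were 1.49% in CB and 0.498% in CC. Other distal peaks of that level stood at 4.02% and 2.32%, and gene-end peaks at 18.96% and 12.8%. Members called higher there were 0.574% and 0.421%, against 0.968% and 0.628% of the other distal peaks. At a log2 CPM of 5 or more, lower calls were 0.0851% and 0% of members. They were 0.876% and 0.184% of other distal peaks, and 1.94% and 0.466% of gene-end peaks. All 3 HOMO libraries lay above all 3 WT libraries at 1343 members in CB and below them at 558 (background 10.3% and 13.2% of all peaks, members 14.6% and 6.06%), and at 1383 and 409 in CC (background 9.81% and 11.2%, members 15.0195% and 4.44%). In both populations 35 members were higher and 26 lower, and 0 were called in opposite directions.

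These counts too rested on single libraries. The 196 member calls in CB became 13 without HOMO CB library 2, 54 without HOMO CB library 3, 35 without WT CB library 1 and 117 without WT CB library 3. The 135 in CC became 2 without HOMO CC library 2, 13 without HOMO CC library 3, 13 without WT CC library 1, 39 without WT CC library 2, 58 without WT CC library 3, 79 without HOMO CB library 2 and 337 without HOMO CC library 1.

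Some single members changed by more than their cluster did. One that held in every fit was a peak in the cluster inside Nfkb1, which encodes the p50 subunit of NF-kB and its precursor, at chr3:135585447-135585947. It had 14.5, 11.6 and 12.1 CPM in HOMO CB against 5.81, 6.30 and 7.26 CPM in WT CB (0.95, edgeR adjusted p = 0.00338), and 13.0, 11.9 and 11.5 CPM in HOMO CC against 4.35, 4.51 and 5.01 CPM in WT CC (1.37, adjusted p = 0.000856). Its groups were far apart in both populations, and both calls held in all 12 fits that left out 1 library. A peak in the cluster named for Hmgb1, a chromatin protein, had 47.7, 40.5 and 49.2 CPM in HOMO CB against 29.2, 28.1 and 29.6 CPM in WT CB (0.66, adjusted p = 0.00338). It also passed in CC (0.67, adjusted p = 0.00745), where the call was lost without HOMO CC library 2 (0.078) or HOMO CC library 3 (0.0526).

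In the Jak1 cluster a weak peak had 10.2, 6.73 and 5.52 CPM in HOMO CB against 2.05, 2.29 and 2.65 CPM in WT CB (1.61, edgeR adjusted p = 0.00472), so the libraries of HOMO varied widely but stayed above WT. Its CC call (1.31, adjusted p = 0.0207) was lost without HOMO CC library 2 (0.136), WT CC library 1 (0.081) or WT CC library 3 (0.0719). A peak in the cluster at Incenp, a chromosomal passenger protein of mitosis, had 6.55, 4.72 and 3.61 CPM in HOMO CB against 1.56, 2.06 and 1.66 CPM in WT CB (1.47, adjusted p = 0.00438; CC 1.19, adjusted p = 0.0191). Its CC call was lost without HOMO CC library 2 (0.123), HOMO CC library 3 (0.0924), WT CC library 2 (0.0695) or WT CC library 3 (0.0719). The strongest peak named for CC lay in the Csk cluster, with 62.3, 65.6 and 66.7 CPM in HOMO CC against 45.3, 48.2 and 42.0 CPM in WT CC (0.53, adjusted p = 0.00549), and was lost without HOMO CC library 2 (0.0743). All of these peaks separated the genotypes fully in the population given.

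Among members that were lower, the first by size lay on chromosome 14, 1.57 Mb from the end of Pbrm1, in the cluster named for 3425401B19Rik. It had 0.524, 0.434 and 0.404 CPM in HOMO CB against 6.34, 6.87 and 4.71 CPM in WT CB (-3.76 ± 0.34, edgeR adjusted p = 1.27e-05), and 0, 0.372 and 0.555 CPM in HOMO CC against 3.96, 4.27 and 4.48 CPM in WT CC (-3.35, adjusted p = 0.000162). In no HOMO library did it reach 1 CPM. Within 6 Mb of Pbrm1 (chr14:31019138-31121592) lay 101 members in 6 clusters, of which 3 were called in CB, 1 of them higher, and 2 in CC. These shares of 2.97% and 1.98% stand beside 4.63% and 2.75% of all peaks. On chromosome 14 as a whole, 3.65% of its 356 members were called in CB and 2.25% in CC, against 2.07% and 1.43% of the members elsewhere. For all peaks on chromosome 14 the shares were 6.90% and 3.90%. Away from that chromosome the member calls were 84 higher and 99 lower in CB and 92 and 35 in CC.

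A peak in the Smad3 cluster had 6.94, 7.78 and 7.44 CPM in HOMO CB against 16.1, 13.4 and 14.6 CPM in WT CB (-0.99, edgeR adjusted p = 0.00225), and its CC groups overlapped (-0.39, adjusted p = 0.181). A peak in the cluster near Sertad2 had 9.69, 6.16 and 9.53 CPM in HOMO CB against 17.4, 15.8 and 18.4 CPM in WT CB (-1.06, adjusted p = 0.00393), and 5.91, 6.40 and 8.80 CPM in HOMO CC against 18.7, 14.3 and 17.3 CPM in WT CC (-1.21, adjusted p = 0.00541). Both Sertad2 calls show full separation of the genotypes, and they were lost without HOMO CB library 2 (0.052) in CB and without HOMO CC library 2 (0.075) in CC. A peak near Osbpl8, a lipid transfer gene, was lower in CB (-0.84, adjusted p = 0.00233) and likewise in CC (-0.76, adjusted p = 0.00913), and its CC call was lost without HOMO CC library 2 (0.0805) or HOMO CC library 3 (0.0627).

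Members with a protein-coding start were few, and so were their calls. Of the 162 members with a protein-coding start, 0 were called higher and 9 lower in CB, and 0 higher and 2 lower in CC, and their median fold changes were -0.05 and -0.00. The lower calls are 5.56% of these members in CB and 1.23% in CC, beside 3.85% and 2.17% of all peaks, and the higher calls 0% in each, beside 0.779% and 0.578%, so these counts lie near the background. For the higher direction, 5 had an unadjusted p under 0.05 in each population, and DESeq2 called 0. The 8943 members with no listed start gave 89 higher and 97 lower in CB and 97 higher and 36 lower in CC, with medians of 0.07 and 0.11. Members with a protein-coding start were stronger, at a median of 29.2 CPM, against 17.7 CPM with a noncoding start only and 11.8 CPM with no listed start.

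The starts behind the sequences shown above lie in such members. The peak at the first Abr window had 4.85, 3.47 and 3.97 CPM in HOMO CB against 8.93, 6.64 and 7.76 CPM in WT CB (-0.98, edgeR adjusted p = 0.00788), and 4.58, 3.72 and 4.97 CPM in HOMO CC against 8.69, 8.73 and 7.86 CPM in WT CC (-0.93, adjusted p = 0.0158). Abr encodes a regulator of small GTPases, and this is an internal start of the gene. The second Abr peak had 16.5, 15.2 and 15.7 CPM in HOMO CB against 26.1, 21.4 and 21.4 CPM in WT CB (-0.55, adjusted p = 0.0290; CC -0.59, adjusted p = 0.0279). In both Abr peaks the genotypes did not overlap. In CB both calls were lost without HOMO CB library 2 (0.0835 and 0.155) or WT CB library 1 (0.0585 and 0.164), and the second also without HOMO CB library 3 (0.105). In CC both were lost without HOMO CC library 2 (0.156 and 0.169), HOMO CC library 3 (0.0524 and 0.136), WT CC library 1 (0.0629 and 0.145) or WT CC library 2 (0.0543 and 0.0883).

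The peak at the Rbpj window had 14.3, 13.6 and 14.3 CPM in HOMO CB against 19.3, 18.7 and 23.4 CPM in WT CB (-0.55, edgeR adjusted p = 0.0258). The peak at the St8sia6 window had 35.0, 31.0 and 33.5 CPM in HOMO CB against 45.0, 42.5 and 48.6 CPM in WT CB (-0.46, adjusted p = 0.0103). Neither passed in CC (adjusted p = 0.484 and 0.614). The St8sia6 call was lost without HOMO CB library 2 (0.095), and the Rbpj call without HOMO CB library 2 (0.142), HOMO CB library 3 (0.0882), WT CB library 1 (0.0694) or WT CB library 3 (0.108). The peaks at the CG-rich windows of Csk and Ikzf1 did not pass in CB, with 60.2, 68.9 and 65.5 CPM in HOMO CB against 51.1, 53.8 and 63.9 CPM in WT CB at Csk (adjusted p = 0.310). The CG-rich Ikzf1 peak had 39.7, 43.5 and 44.6 CPM in HOMO CB against 37.1, 38.4 and 38.2 CPM in WT CB (adjusted p = 0.331).

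The clusters were also counted by the gene groups of B cell biology. The lists were drawn up with earlier results of these data known, so they are a description. Of 24 germinal center and B cell transcription factors, 16 named 24 clusters, among them 5 at Foxp1 and a pair each at Ebf1, Irf8, Ets1 and Mef2c, and Pax5, Spi1 and Mef2b named none. These 24 clusters had a median of 0.16 in CB with 23 positive, and of 0.14 in CC with 24 positive, and 4 were higher and 0 lower in CB and 1 higher and 0 lower in CC. Over all 654 clusters the medians were 0.10 and 0.12, with 6.73% called higher in CB and 6.12% in CC, and over all units 1.77% and 1.06% were called higher. Loess offsets on the summed units gave medians of 0.06 in CB and -0.00 in CC, with none called. For the lower direction, 0 had an unadjusted p under 0.05 and DESeq2 called 0, in either population.

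Of 21 genes of B cell receptor signalling, 9 named 10 clusters, among them Syk, Blnk, Plcg2, Cd72, Prkcb, Pik3ap1, Fcgr2b and Inpp5d. All 10 were positive in both populations (8 in CB with DESeq2 size factors), with medians of 0.12 and 0.15, and none passed with edgeR in either direction. Unadjusted p values under 0.05 were found at 3 in CB and 4 in CC, all higher, and DESeq2 called 0 and 1. Their medians were 0.03 and 0.02, with 6 and 5 positive, under loess offsets on the summed units. Of 14 migration genes, 6 named 7 clusters, with medians of 0.06 and 0.16. Of these 7, 4 were positive in CB and 7 in CC. The called ones were those of Cxcr4, 2 in CB and 1 in CC, all higher. Over all 654 clusters 6.73% were called higher in CB and 6.12% in CC, and over all units 1.77% and 1.06%. With the loess offsets their CB median turned to -0.04.

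Of 17 light zone genes, 7 named a cluster each (Cd83, Cd86, Nr4a1, Traf1, Nfkb1, Il21r and Ciita), with medians of 0.07 and 0.14. All 7 were positive in both populations, and Ciita in CC was the 1 called, beside 6.12% of all clusters called higher in CC. The loess offsets turned these medians to -0.08 and -0.01. Of 13 dark zone genes, 2 named a cluster. That of Ccnd3 was higher in both populations, as given above, and neither cluster passed with loess offsets on the summed units. The plasma cell genes with a cluster were Tnfrsf13b and Slamf7 and the SWI/SNF genes Arid1b and Bcl7a, and edgeR called none of their 6 clusters. At 1 of them, in CC, the unadjusted p was under 0.05, on the higher side, and DESeq2 called 0. None of the 15 T cell, 11 myeloid and 9 natural killer or erythroid genes named a cluster. Over all autosomal protein-coding genes 2.92% did, so none in lists of this size lies near that share.

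Between the sorted populations, more clusters were called lower than higher in CC against CB, a balance that turned round with loess offsets on the summed units. In WT, 5 clusters were higher and 20 lower in CC (3.82% called, background 5.16%, of which 3.75% higher and 1.41% lower). In HOMO, 16 were higher and 35 lower (7.80%, background 6.38%, of which 4.48% higher and 1.9% lower). The medians of CC over CB were -0.08 in WT and -0.04 in HOMO, beside -0.01 and -0.01 over all units, and turned to 0.01 and 0.02 with loess offsets on the summed units, which called 27 higher and 13 lower in WT and 45 and 31 in HOMO. Equal library numbers paired CB with CC within a genotype, and with that block the calls were 50 higher and 214 lower in WT and 81 higher and 169 lower in HOMO. A total of 5 clusters were higher and 17 lower in both genotypes, and none was called in opposite directions. Without WT CB library 1, WT CB library 2, WT CC library 1, WT CC library 2 or HOMO CC library 1 the 25 calls in WT became 10, 11, 12, 8 and 44. Without HOMO CB library 2, HOMO CB library 3 or HOMO CC library 2 the 51 calls in HOMO became 24, 19 and 26.

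The clusters lower in CC included that of Hnrnpll, a splicing regulator of lymphocytes, with 199, 188 and 175 CPM in WT CC against 276, 261 and 235 CPM in WT CB (-0.46, edgeR adjusted p = 0.0014). In HOMO it had 196, 194 and 199 CPM in CC against 288, 279 and 283 CPM in CB (-0.53, adjusted p = 0.000259). The steepest fall among named clusters was at Ccdc190, with 33.0, 37.2 and 31.5 CPM in WT CC against 62.6, 67.6 and 49.2 CPM in WT CB (-0.81, adjusted p = 0.00442; HOMO -1.03, adjusted p = 0.000585). Trp53i11 (-0.38 in WT and -0.45 in HOMO), Lipc (-0.42 and -0.39) and Cacna1e (-0.36 and -0.41) were lower in both. Lmo4, a LIM-only cofactor, had 68.0, 77.1 and 67.4 CPM in HOMO CC against 107, 119 and 112 CPM in HOMO CB (-0.67, adjusted p = 0.000415; WT -0.41, adjusted p = 0.0217). The CC libraries of these clusters lay below the CB libraries of the same genotype. The kappa cluster was lower in CC as well, by -0.30 in WT (adjusted p = 0.0378) and -0.38 in HOMO (adjusted p = 0.00739), and the first Cxcr4 cluster in HOMO (-0.33, adjusted p = 0.0141). The WT call of the kappa cluster was lost without WT CB library 1 (0.118), WT CB library 2 (0.191), WT CC library 1 (0.103), WT CC library 2 (0.139), WT CC library 3 (0.0852) or HOMO CB library 2 (0.0510), and with loess offsets on the summed units (0.143). That of Lmo4 in WT was lost without WT CB library 1 (0.0661), WT CB library 2 (0.125), WT CC library 1 (0.109) or WT CC library 2 (0.0639), and with those offsets (0.0664). Cxcr4 in HOMO was lost without HOMO CB library 2 (0.0630), and Lipc in HOMO without HOMO CB library 3 (0.0506).

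Higher in CC was the Atxn1 cluster, with 129, 132 and 126 CPM in WT CC against 108, 96.2 and 93.3 CPM in WT CB (0.37, edgeR adjusted p = 0.0126; HOMO 0.36, adjusted p = 0.0138). Bhlhe40 was higher by 0.32 in WT (adjusted p = 0.014) and 0.42 in HOMO (adjusted p = 0.0017), the second Xylt1 cluster by 0.40 (adjusted p = 0.0146) and 0.51 (adjusted p = 0.00215), Tmem131l by 0.39 (adjusted p = 0.0159) and 0.35, and Kcnk13 by 0.30 (adjusted p = 0.0459) and 0.34. In HOMO, Smad3 (0.49, adjusted p = 0.00676), Tagap (0.39, adjusted p = 0.00439) and Rbpj (0.34, adjusted p = 0.005) passed, and in WT the same clusters had 0.35, 0.25 and 0.17 without passing. The WT calls were lost at Atxn1 without WT CB library 2 (0.0563) or WT CC library 2 (0.0579), at Xylt1 without WT CB library 1 (0.09) or WT CC library 2 (0.0956) and at Tmem131l without WT CC library 2 (0.0507). At Bhlhe40 they were lost without WT CB library 2 (0.056), WT CC library 1 (0.0535) or WT CC library 2 (0.0688). Kcnk13 was lost without any of 8 of the 12 libraries (0.0552 to 0.176), and Smad3 in HOMO without HOMO CB library 3 (0.061). The HOMO calls were lost at Atxn1 without HOMO CB library 1 (0.0636) or HOMO CC library 2 (0.0941), and at Kcnk13 without HOMO CB library 2 (0.0627), HOMO CB library 3 (0.115) or HOMO CC library 2 (0.117). At Tmem131l they were lost without HOMO CB library 1 (0.114), HOMO CB library 3 (0.0832), HOMO CC library 2 (0.152) or HOMO CC library 3 (0.0645).

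**Figure D5:**
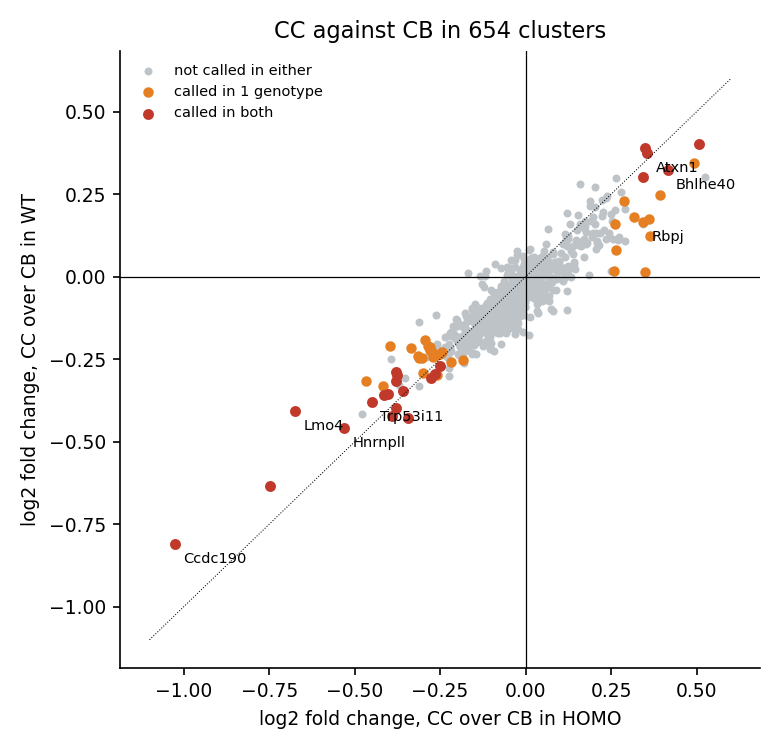
Log2 fold change of CC over CB for each of 654 clusters in HOMO (horizontal) and WT (vertical), with clusters called in both genotypes, in 1 and in neither in different colours and a dotted line of equality. Both genotypes show more called clusters on the lower side (35 against 16 in HOMO, 20 against 5 in WT), which turned to 31 against 45 and 13 against 27 with loess offsets on the summed units.

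Among single members, 192 were higher and 346 lower in CC in WT (5.84%, background 5.43%), and 352 higher and 386 lower in HOMO (8.01%, background 7.22%, of which 4.78% higher and 2.44% lower). With the block for library number these were 761 and 1664 in WT, and 1156 and 1378 in HOMO. In the background, higher calls outnumbered lower ones (3.35% and 2.08% of all peaks in WT). The balance varied with peak level. At a log2 CPM of 4 to 5 in WT, 25 members were higher and 120 lower, beside 87 and 262 other distal peaks. At 5 or more the counts were 2 and 95, beside 8 and 118. Below 2 they were 61 and 14, beside 1043 and 134. From 3 to 4 they were 50 and 81, beside 279 and 237. In both genotypes 138 members were higher and 225 lower, and 0 were opposite. A peak in the cluster at Blk, a Src family kinase of B cells, had 9.70, 13.5 and 14.2 CPM in WT CC against 3.32, 3.66 and 5.14 CPM in WT CB (1.60, edgeR adjusted p = 0.000297; HOMO 1.70, adjusted p = 8.11e-05). A peak near Bcl2l1, which encodes the survival protein Bcl-xL, had 14.98, 15.3 and 14.8 CPM in WT CC against 7.56, 7.22 and 6.87 CPM in WT CB (1.06, adjusted p = 0.000448). A peak at Bmf, a death activator of the same family, had 11.2, 11.1 and 9.88 CPM in WT CC against 21.3, 24.5 and 19.9 CPM in WT CB (-1.03, adjusted p = 0.000231). At Lmo4 a peak had 7.22, 7.04 and 7.46 CPM in WT CC against 16.9, 22.8 and 14.99 CPM in WT CB (-1.31, adjusted p = 0.000245). The populations did not overlap at these 4 peaks, and the calls held in all 12 fits that left out 1 library. Without WT CB library 1, WT CB library 2, WT CC library 1 or WT CC library 2 the 538 calls in WT became 154, 263, 270 and 215. The 738 in HOMO became 370, 394, 270 and 484 without HOMO CB library 2, HOMO CB library 3, HOMO CC library 2 or HOMO CC library 3.

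Whether the effect of genotype differed between the populations was tested as the difference of the CC and CB fold changes. No cluster passed (0 of 654 by edgeR, with 2 at an unadjusted p under 0.05 and 0 by DESeq2, background 0%), and no member (0 of 9208, with 75 unadjusted and 0 by DESeq2). These counts come from fits without the block for library number, though CB and CC libraries pair by number within a genotype. The counts with that block are not given here. The median difference over clusters was 0.03, CC minus CB. The smallest p values were at Fam222a (0.34), St8sia6 (0.24) and Lmo4 (-0.27), all at an adjusted p of 1. A call in 1 population and not in the other, as at Rbpj or Bach2, is therefore not shown to be a difference between populations.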

How the data were processed

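Omni-ATAC-seq counts were taken as the authors deposited them, as whole-number raw counts per peak on mm10 in 12 libraries. BWA, deepTools, FastQC and R 4.2.1 appear in the submitters' processing notes, with no roles. How peaks were called and counted and how duplicates were treated is not given in the sources used. The tagmented DNA was cleaned on Zymo columns and amplified by KAPA HiFi polymerase, per the labels' protocols.

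Members and gene lists were chosen with earlier results of these data known. Gene ends came from the RefSeq table of GRCm38.p6. CPM values used TMM library sizes. The 68689 peaks and the 37599 summed units were each fitted with edgeR 4.0.16 (quasi-likelihood, robust, TMM, 4 group means over 12 libraries, R 4.3.3), with Benjamini-Hochberg adjustment over all features at 0.05, and no feature fell to the low-count filter. All p-values called adjusted are edgeR's unless another tool is named. Clusters and peaks named were the 6 with the smallest p per contrast and direction (5 for clusters between CC and CB, 3 where fewer than 3 passed, and 3 for the difference of effects), the 6 clusters with most peaks and the 6 with the highest sum, peaks in named clusters, and called clusters of listed genes. The strongest peaks of the kappa cluster and the peaks at printed start windows were picked after values were seen. The fits were tested on simulated counts. Alternatives were DESeq2 1.42.0 and its size factors, loess offsets (limma 3.58.1), low-count filters, a replicate block, leaving out libraries, and other chaining rules. CB and CC libraries of the same number deviated together within a genotype (correlations of 0.21 to 0.52 in 6 pairs, against -0.34 to 0.12 for unequal numbers), which pairs them for CC against CB. Library totals ran from 6431354 to 45590454 counts, and the median standard error of a cluster fold change was 0.0824. Some clusters are not reported here.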

Additional observations from a re-analysis of the deposited data

How the results depend on the processing

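The direction of the general shift between genotypes turned with loess offsets on the summed units. It did not turn with DESeq2 size factors or with loess offsets from single peaks. With loess offsets on the summed units, clusters called were 31 in CB, 13 in CC, 40 for CC against CB in WT, and the medians turned to -0.014 in CB, -0.022 in CC, 0.013 for CC against CB in WT and 0.017 for the same contrast in HOMO. With loess offsets from single peaks, chosen after seeing the data, 83 clusters were called in CB and 64 in CC. DESeq2 called 327 members in CB and 262 in CC, and 71 clusters in CC and 46 for CC against CB in WT. The cause of these differences was not tested.

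Whether equal numbers pair HOMO with WT is not settled. Over all peaks, correlations were -0.01 to 0.40 for equal numbers and -0.30 to 0.18 for unequal ones. Over cluster peaks they were -0.06 to 0.53 and -0.44 to 0.31, so the ranges overlapped though equal numbers reached higher. A shared part by library number was not tested. With a replicate block, 888 members were called in CB and 846 in CC, and 155 and 168 clusters. For CC against CB, where numbers pair the libraries, the block called 2425 members in WT and 2534 in HOMO, and 264 and 250 clusters. The block ended none of the 179 calls followed.

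Without both HOMO libraries numbered 1, the shallowest, calls were 319 members in CB, 471 in CC and 490 for CC against CB in HOMO, and 104, 162 and 33 clusters, with 61 clusters for CC against CB in WT. Without both WT libraries numbered 2 they were 106, 24 and 57 members in CB, CC and CC against CB in WT, and 19, 6 and 2 clusters.

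Other chaining rules change which peaks are members, so their counts are not the same features. Calls are given in the order CB, CC, WT (CC against CB) and HOMO (CC against CB). With a distance of 5 kb, 7, 8, 17 and 24 members and 1, 0, 1 and 1 clusters were called. With 20 kb, 473, 281, 1099 and 1503 members and 85, 70, 61 and 99 clusters were called. With a minimum of 15 peaks, 76, 57, 281 and 358 members and 16, 10, 12 and 19 clusters were called. With peaks over 5 kb from a gene end, 100, 73, 324 and 453 members were called, and 28 and 26 clusters in CB and CC. The numbers of members under each rule are not given here, so these counts do not show whether the share called changed.

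Leaving out 1 library at a time gave 13 to 283 members called in CB, 2 to 337 in CC, 154 to 686 for CC against CB in WT and 270 to 832 in HOMO. Clusters called ran over 0 to 84, 0 to 149, 8 to 44 and 19 to 63, and the difference of effects gave 0 to 0 in members and in clusters. The median of clusters for CC against CB in HOMO ran from -0.083 to 0.014, the highest without HOMO CC library 1. Of the 179 calls followed, 57 held in every such fit (15 of 72 for clusters, 42 of 107 for peaks), 107 without HOMO CB library 2, 113 without HOMO CC library 2, 146 with loess offsets, and 179 with DESeq2 and with either low-count filter. None changed direction under any setting.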

Other observations

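Hairpins of 35 microRNAs lay inside 31 of the clusters, by RefSeq position. The cluster named for Zswim4 held those of Mir23a, Mir27a, Mir24-2 and Mir3074-2, the one named for Hic1 those of Mir132 and Mir212, and the one named for Vmp1 that of Mir21a. Mir704 lay in the Pdia4 cluster and Mir138-2 in the one named for Slc12a3. The counts describe open chromatin around these hairpins and hold no measure of the RNAs.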
